A study of Mus musculus with 32 samples.

Results

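Tumours carrying Ddr1 knockout E0771 cells, 10 libraries of the 32 in the series, were compared between hosts: 5 libraries from C57BL/6 hosts at the time titled day 4 and 5 libraries from Rag1-/- hosts. E0771 is a mouse mammary tumour line of C57BL/6 origin, and the study asks, by its title, what DDR1 does in the growth of mammary tumours. The Rag1-/- tumours grew in mice that lack the Rag1 gene. The day 4 tumours had, per the design text, been moved from Rag1-/- hosts into C57BL/6 mice, so host, transplant history and deposited table change together and cannot be told apart. The libraries were chosen by their titles and labels, not by any measured value. Wild-type E0771 tumours of the same hosts and steps, 5 in Rag1-/- mice and 4 at day 4, stand in the same tables and serve as the comparison. Further levels come from 8 C57BL/6 tumours titled day 6, treated with control IgG or with an antibody named for the human DDR1 extracellular domain and labelled with no Ddr1 genotype, and from 5 libraries of cultured cells, of which 2 are knockout derivatives. The labels do not say which knockout derivative gave the tumours, what the day is counted from, or whether the 5 libraries of a group are separate animals, so the spread between them may be partly technical.

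Rag1 encodes part of the recombinase that joins antigen receptor genes. Mice without it make no mature T or B cells but keep neutrophils, macrophages and natural killer cells, and C57BL/6 mice have all of these. Transplantation also wounds tissue, and wounds draw neutrophils early, then macrophages and matrix-producing fibroblasts. DDR1 is a receptor tyrosine kinase that binds collagen.

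Depth was 20774531 to 28600639 reads in the day 4 libraries and 19071021 to 23863276 in the Rag1-/- libraries. Levels are in RPM, reads per 1000000 reads of the 20109 gene symbols that both tables list. These symbols held 88.9% to 93.4% of a day 4 library and 93.2% to 93.3% of a Rag1-/- library. The ribosomal RNA gene Rn45s, listed in the day 4 table alone, took 0.329% to 4.95%. The labels give polyA RNA as the molecule at day 4 and total RNA in Rag1-/- hosts, although the protocol text is the same. Log2 profiles correlated at 0.990 to 0.996 (Pearson's r, across genes) among Rag1-/- libraries, at 0.909 to 0.979 among day 4 libraries and at 0.822 to 0.918 between hosts, so the day 4 tumours varied more. Differences below are means of log2(RPM + 0.5), day 4 minus Rag1-/-, with the standard error (SE) over 5 and 5 libraries, and on this scale the change of weakly expressed genes is understated. The tables were normalized separately, so no p-value is given for this comparison.

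Ddr1 itself, on chromosome 17 at 35681567 to 35704621 (mm10), was low in knockout tumours of both hosts. Its level was 32.7, 30.1, 34.9, 32.1 and 53.7 RPM in day 4 libraries 1 to 5 and 37.9, 40.7, 35.7, 37.1 and 45.4 in Rag1-/- libraries 1 to 5, so the hosts overlapped (difference -0.13, SE 0.16). Wild-type tumours held Ddr1 at 142 to 188 RPM at day 4 and 186 to 203 in Rag1-/- hosts, above every knockout tumour. The labelled tumour type was checked against keratins. Krt8, an epithelial keratin with close relatives in the genome, was at 259 to 328 RPM in Rag1-/- knockout tumours, while Krt18, Krt19 and Krt14 were each under 1 RPM there.

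Genes at least 4-fold apart whose 5 day 4 libraries did not overlap the 5 Rag1-/- libraries are called higher or lower here. Of 11603 genes with a mean of at least 1 RPM and reads in both tables, 683 (5.89%) were higher at day 4 and 91 (0.784%) were lower, 774 (6.67%) in all. The median difference over all these genes was -0.12, and it was -0.15 in wild-type tumours. Without the size limit 2423 genes (20.9%) were higher without overlap and 3980 (34.3%) were lower, together 55.2%, so non-overlap alone was the common case between these tables. Counts of list members given below are to be read beside these shares. The level for testing is a mean over all 10 libraries. A gene under 1 RPM in every library of 1 host was therefore tested only if it was higher in the other. For lists with such genes the share called and the median are partly set by this filter. With a pseudocount of 5 in place of 0.5 the 774 calls became 250, and at 2-fold they became 2627, of which 57.1% were higher. Among the genes kept by the filter described below, the called gene nearest the limit had an absolute log2 difference of 2.005. The nearest gene outside the limit, also without overlap, had 1.999.

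The largest differences set the tables apart and not the hosts alone. Eno1, a glycolytic enzyme, was at 769, 785, 908, 862 and 1290.3 RPM at day 4 and was listed at 0 in 4 Rag1-/- libraries, with 0.0534 in library 4. The cultured cells, whose table lists the same genes as the Rag1-/- table, had at most 0.0328 RPM of it. Rps29, a ribosomal protein, was at 630.0 to 1228 against 0.562 to 0.809, and 40 of 84 ribosomal protein genes were called higher, 39 of them genes that share sequence with another locus. Adnp went the other way, at 0.202 to 0.771 RPM at day 4 and 165 to 190.1 in Rag1-/- tumours. A further 35 genes were listed at 0 in all tumour libraries of a table. In all, 346 genes had every day 4 and day 6 library on one side of every Rag1-/- and culture library, with means of the 2 sides at least 4-fold apart on the log2(RPM + 0.5) scale, and 207 of the higher and 57 of the lower calls are among them. Leaving out these genes and those that share over 5% of their 50-base sequences or over 20% of their exonic bases with another gene left 9431 genes, with 427 (4.53%) higher and 22 (0.233%) lower, together 4.76%. Of these, 166 and 12 were also 4-fold apart in the same direction without overlap in wild-type tumours, and 5 had the opposite sign there. That filter also removes true stromal genes that are absent from cultured cells and high at day 6, such as Dcn, Bgn and Col1a1. The genes named below passed it unless said otherwise.

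**Figure D1:**
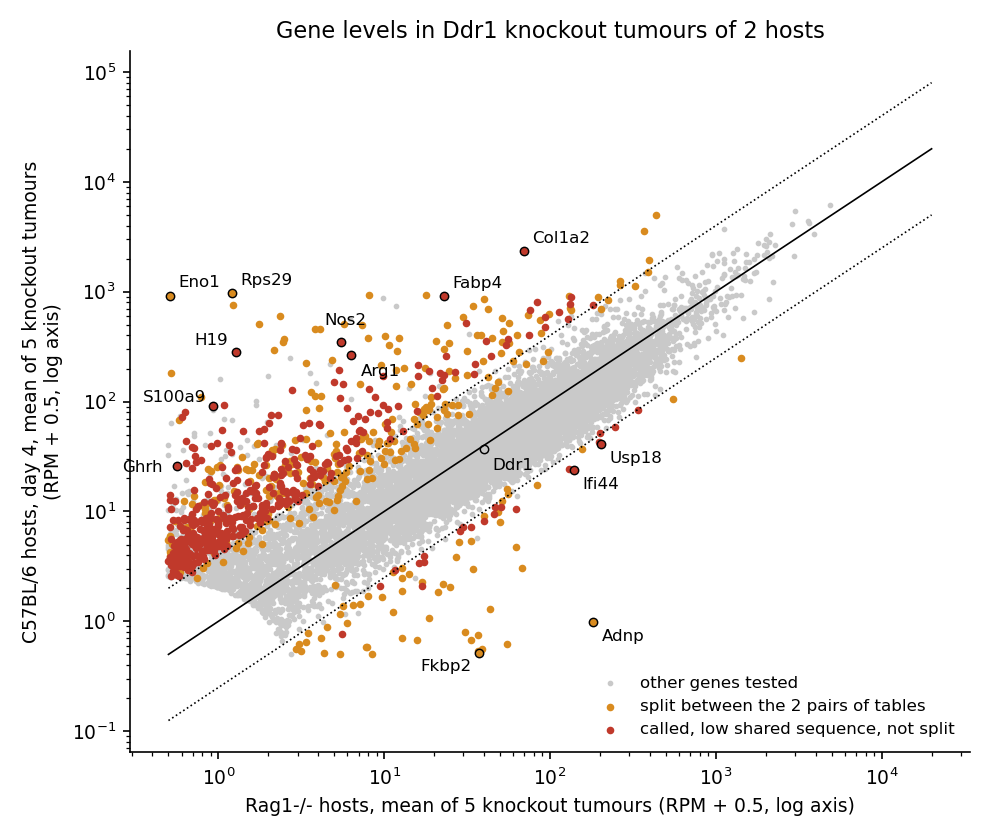
Mean level of each gene tested in 5 knockout tumours of Rag1-/- hosts (x axis) and of C57BL/6 hosts at day 4 (y axis), in RPM + 0.5 on log axes, with the line of equal level and dotted lines at 4-fold. Orange points are the 346 genes that separate the 2 pairs of tables (Eno1, Rps29, Adnp and Fkbp2 among them), red points the 449 called genes that remain, and Ddr1 lies near the line.

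Neutrophil genes were higher at day 4. Of 25 listed neutrophil genes 13 were tested and 7 were called higher, none lower, with a median difference of 2.73 beside -0.12 over all genes. S100a9, a calcium-binding alarmin that fills the neutrophil cytoplasm, was at 179, 66.8, 48.0, 103 and 53.6 RPM in day 4 libraries 1 to 5. In Rag1-/- libraries 1 to 5 it was at 0.135, 0.787, 0.805, 0.213 and 0.231, so the lowest day 4 library stood far above the highest Rag1-/- library (difference 6.49, SE 0.41). Its partner S100a8 was at 124, 54.0, 33.1, 67.9 and 35.5 against 4.13, 2.53, 3.33, 3.26 and 1.89 (4.03, SE 0.38). Library 1 was the highest and library 3 the lowest for both partners at day 4. Cxcr2, the receptor through which neutrophils follow their chemokines, was at 18.4, 7.67, 3.41, 9.04 and 1.52 against 0 to 0.281 (3.30, SE 0.57). Clec4d (3.27, SE 0.26), Il1r2, the decoy receptor of interleukin 1 (3.08, SE 0.33), and Trem1 (2.73, SE 0.37) did not overlap either. Both S100a9 and Cxcr2 were under 1 RPM in every Rag1-/- library, so they were tested only through their day 4 levels. At day 6 S100a9 was at 0.053 to 2.68 RPM, below every day 4 knockout tumour.

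Lcn2, an iron-scavenging neutrophil granule protein, needs care as a marker. It was at 82.5, 52.2, 6.07, 51.2 and 11.1 RPM at day 4 against 1.12 to 3.04 in Rag1-/- tumours (3.6, SE 0.73). Cultured E0771 cells, which hold no neutrophils, had 99.6 to 298 RPM of Lcn2, whereas S100a9 was at most 0.183 in culture. Summed over the 21 neutrophil genes in both tables, day 4 libraries 1 to 5 held 776, 414, 259, 474 and 251 RPM and Rag1-/- libraries 59.2 to 82.4. Cultured cells had 161 to 597 RPM for the same sum, which overlapped the day 4 tumours. Wild-type tumours had a list median of 3.02. No neutrophil gene passed the test, described further on, for a host difference unlike in the genotypes. In bulk tumour RNA, fewer cells of a type and less RNA per cell cannot be told apart.

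**Figure D2:**
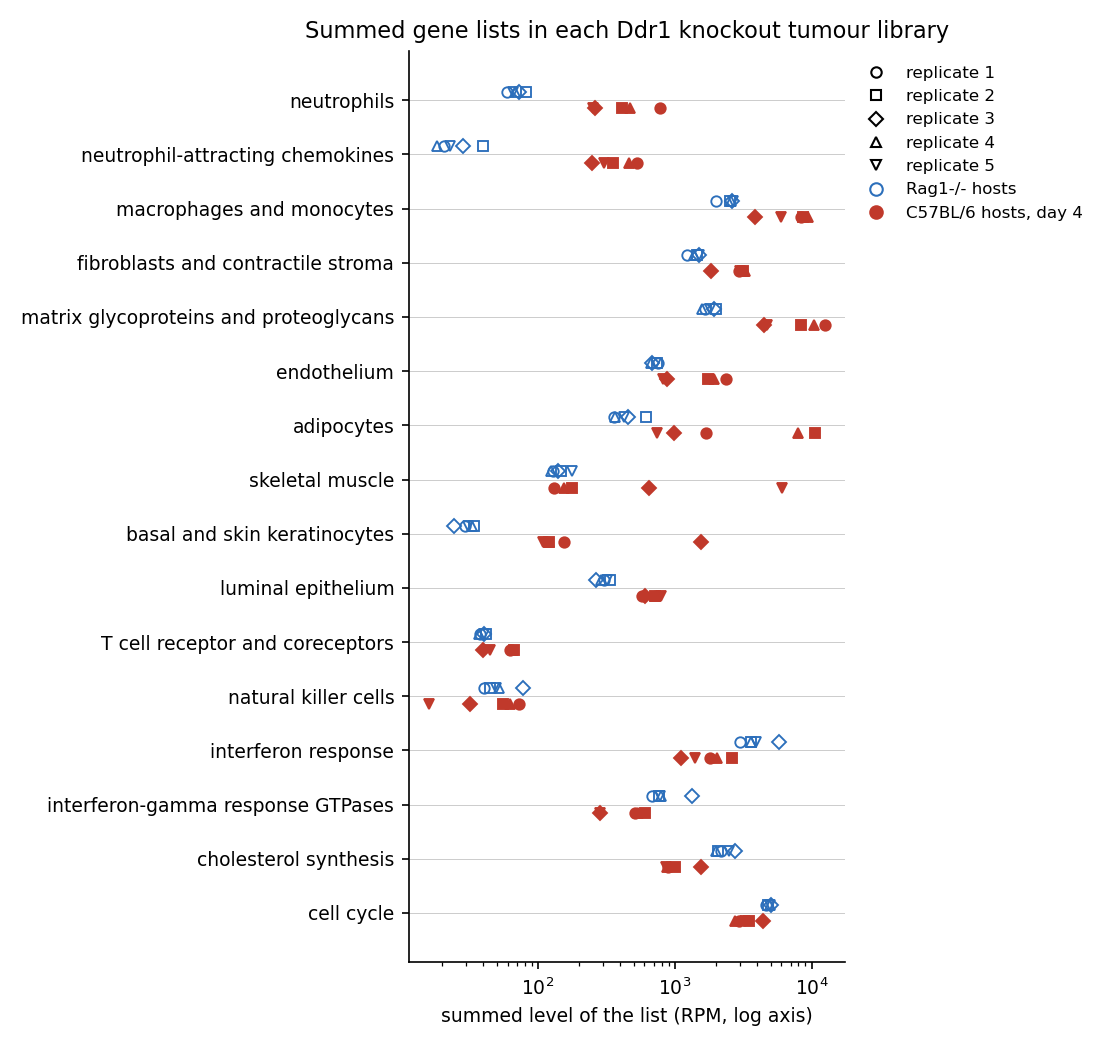
Summed level of each gene list (RPM, log axis) in each knockout tumour, with open blue symbols for 5 Rag1-/- libraries and filled red symbols for 5 day 4 libraries, and symbol shape for the replicate number. Neutrophil sums were 251 to 776 at day 4 and 59.2 to 82.4 in Rag1-/- hosts, adipocyte genes stand out in day 4 libraries 2 and 4, muscle genes in library 5 and keratinocyte genes in library 3.

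The chemokines that draw neutrophils moved with them. Of 8 listed genes 6 were tested, 5 were called higher and none lower, with a median difference of 4.10. Ppbp, the platelet precursor of a CXCR2 ligand, was at 51.1, 32.7, 31.7, 68.9 and 21.2 RPM at day 4 against 0.359, 0.955, 0.375, 0.374 and 0.323 (5.33, SE 0.33). Its neighbour on chromosome 5, Pf4 or platelet factor 4, was at 311, 270.4, 169, 299.7 and 248 against 16.1 to 35.5 (3.48, SE 0.25). Cxcl3 was at 57.9, 15.4, 19.0, 34.3 and 8.14 against 0 to 0.225 (5.14, SE 0.48), and Cxcl5 was at 4.30 to 29.6 against 0.0534 to 0.562 (3.56, SE 0.52). Cxcl2, which shares just over 5% of its sequence with a relative, was at 68.1, 19.6, 21.5, 39.5 and 16.8 against 0.461 to 1.35 (4.64, SE 0.41). None of these 5 genes overlapped between hosts, and library 1 or 4 was the highest for each. Ppbp, Cxcl3 and Cxcl5 were under 1 RPM in every Rag1-/- library and were tested only through their day 4 levels. The share called and the median of this list are partly set by that. At day 6 Ppbp was at 0.0715 to 0.495, Cxcl3 at 0.107 to 0.435, Cxcl2 at 0.622 to 1.36 and Pf4 at 22.4 to 55.8 RPM, each below every day 4 knockout tumour. Cxcl5 was at 0.148 to 2.66 at day 6, below day 4 but with 5 of 8 libraries above every Rag1-/- knockout tumour.

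Promoters of Cxcl2 and Cxcl3 are shown because these neighbouring genes moved together and carry a textbook site of NF-kappaB, the inflammatory transcription factor. The letters GGG, 2 bases of any kind and TTTCC, searched on both strands from 250 bases before to 50 after the start, were found in 512 of 27025 RefSeq promoters (1.89%) and in 3 of 5 neutrophil chemokine promoters held (Cxcl1, Cxcl2 and Cxcl3). They stood in 8 of the 292 promoters held for the 427 higher genes (2.74%). The sequences are from RefSeq, build GRCm38.p6, 250 bases ending just before the start, 5′ to 3′ along the gene, with matches in capitals, at chr5:90903649-90903898 for Cxcl2 and chr5:90785851-90786100 for Cxcl3, both on the plus strand. A match is a description of the letters and not evidence of binding.
Cxcl2 promoter: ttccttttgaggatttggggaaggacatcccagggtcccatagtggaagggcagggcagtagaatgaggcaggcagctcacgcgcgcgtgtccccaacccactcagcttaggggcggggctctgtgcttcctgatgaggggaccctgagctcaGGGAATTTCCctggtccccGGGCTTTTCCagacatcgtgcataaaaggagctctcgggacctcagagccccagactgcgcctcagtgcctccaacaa
Cxcl3 promoter: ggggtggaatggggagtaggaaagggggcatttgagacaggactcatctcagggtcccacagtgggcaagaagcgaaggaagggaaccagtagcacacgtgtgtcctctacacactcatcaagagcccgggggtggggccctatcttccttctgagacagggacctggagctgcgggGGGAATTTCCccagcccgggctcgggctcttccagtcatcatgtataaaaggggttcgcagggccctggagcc

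Of 30 listed macrophage and monocyte genes 25 were tested, with 23 above 0, 8 called higher, none lower and a median of 1.15. After the filter, 4 of 17 remained called. Arg1, the arginase of wound and tumour macrophages, was at 486, 149.9, 217, 302 and 165 RPM at day 4. In Rag1-/- libraries 1 to 5 it was at 1.21, 20.7, 5.95, 0.694 and 0.277 (6.35, SE 0.93). Every day 4 tumour was above every Rag1-/- tumour, among which library 2 was the highest. Nos2, the inducible nitric oxide synthase, was at 557, 192, 272, 384 and 346 against 4.90, 5.56, 4.93, 3.68 and 5.81 (5.93, SE 0.28). Cultured E0771 cells had Nos2 at 351 to 719 RPM, so it is not a marker of host cells here: it was high in culture, low in Rag1-/- tumours, high at day 4 and at 6.70 to 43.4 at day 6. Cd14, the lipopolysaccharide coreceptor, was at 99.4, 64.7, 44.4, 81.9 and 33.2 against 7.01 to 12.3 (2.56, SE 0.31). Cd163, a haemoglobin scavenger receptor, was at 18.4, 23.8, 7.37, 68.0 and 6.72 against 0.534 to 5.56 (3.15, SE 0.79).

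Other members of the macrophage list had smaller differences, and Cd68 and C1qa are given as examples chosen after their values were seen. Cd68, a lysosomal protein of macrophages that also separates the table pairs, was at 152 to 361 RPM against 85.3 to 105 (1.47, SE 0.22) and C1qa, of complement, at 231 to 719.6 against 153 to 259.6, where the hosts overlapped (1.07, SE 0.34). At day 6 C1qa was higher still, at 582 to 2845 RPM. Summed over 26 genes, macrophage levels were 8285, 8617, 3880.0, 9461 and 5967 in day 4 libraries 1 to 5 and 2007 to 2680.3 in Rag1-/- libraries.

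Of 21 listed cytokines of acute inflammation 16 were tested, with 5 called higher, none lower and a median of 1.69. The list summed to 959, 2505, 442, 2254 and 250.2 RPM in day 4 libraries 1 to 5 and to 83.7 to 157 in Rag1-/- tumours. Libraries 2 and 4, which also held most adipocyte RNA, were the highest, and without them the median was 0.93, while without libraries 3 and 5 there were 9 calls. Saa3, an acute phase protein, was at 173, 145, 83.1, 191 and 55.6 RPM at day 4 against 2.56, 21.1, 7.4, 3.10 and 3.64 (4.29, SE 0.62). Il24 was at 14.4, 16.4, 21.9, 29.8 and 24 against 0.784 to 2.24 (3.33, SE 0.27) and Ptgs2, the inducible cyclooxygenase, at 7.29 to 44.9 against 1.15 to 2.92 (3.06, SE 0.45). Monocyte-attracting chemokines gave 4 called of 11 tested. Ccl6, which with Ccl9 also separates the table pairs, was at 605, 434, 226, 691 and 226 against 30.2 to 80.1 (3.02, SE 0.44).

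Lymphocyte genes stayed low in both hosts. Of 26 T cell receptor and coreceptor genes 8 reached the level for testing and none was called (median 0.23), and none of 11 tested natural killer genes was called (0.21). Of 4 B cell and plasma cell genes tested (0.08) 1 was called higher, Pax5 (2.37, SE 0.23, and 1.99 in wild-type tumours). With a pseudocount of 1 the Pax5 difference was 1.86, under the 4-fold limit. Sums of the B cell list overlapped, at 11.3 to 20.1 RPM at day 4 and 10.4 to 17.0 in Rag1-/- tumours. Cd3e, a chain of the T cell receptor complex, was at 0.463, 1.10, 0.0542, 0.900 and 0.152 RPM at day 4. In Rag1-/- tumours Cd3e was listed at 0 in 4 libraries and at 0.0562 in library 2. Day 6 tumours had 1.37 to 42.7 RPM of Cd3e, all above the day 4 knockout tumours. Cd8a was likewise at 0.101 to 0.542 at day 4, at 0 to 0.169 in Rag1-/- tumours and at 4.41 to 83.4 at day 6, and the hosts overlapped. Cd3e and Cd8a did not reach the level for testing, so the absence of calls in the T cell list does not cover them. Cd4, which macrophages and dendritic cells can also express, was lower at day 4, at 1.16, 4.27, 0.813, 2.19 and 1.16 against 6.44 to 9.22 (-1.90, SE 0.34). Cxcl9, a chemokine that draws T cells and answers to interferon-gamma, was at 5.58 to 28.1 at day 4, 10.2 to 28.3 in Rag1-/- tumours and 91.7 to 1219.8 at day 6. The medians of the T cell and natural killer lists changed sign between settings (-0.12 to 0.61 and -0.55 to 0.55), so neither direction is stated.

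Interferon-stimulated genes were lower at day 4, in the host with an intact immune system. These genes carry the antiviral response and are switched on by type I interferon through a shared promoter element. Of 28 listed genes 27 were tested and 26 had a difference below 0 (median -1.36, beside -0.12 over all genes). Of the 27, 18 were lower without overlap and 4 were called lower by the 4-fold rule, beside 34.3% and 0.784% of all genes. Isg20 alone was above 0 (1.53, SE 0.20), with no overlap. In wild-type tumours the list median was -2.0. Usp18, which damps interferon receptor signalling, was at 42.5, 75.9, 20.0, 36.3 and 26.6 RPM at day 4 against 153, 177, 315, 189 and 186 (-2.43, SE 0.37). Ifi44 was at 23.5, 41.2, 14.1, 20.5 and 16.2 against 105, 121, 213, 137 and 119 (-2.62, SE 0.32). Neither Usp18 nor Ifi44 overlapped between hosts. Rsad2, the antiviral protein viperin, was at 107, 121, 41.7, 95.2 and 53.7 against 224, 257, 551, 320.3 and 337 (-2.05, SE 0.37). Oas3, a double-stranded RNA sensor, was at 30.5, 30.7, 13.2, 27.9 and 17.1 against 98.9, 116, 188, 115 and 128 (-2.45, SE 0.29).

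Rag1-/- library 3 was the highest and day 4 library 3 the lowest for all 4 of these interferon genes, Usp18, Ifi44, Rsad2 and Oas3. Ddx60, an RNA helicase of the same response but outside the list, was at 13.1, 9.97, 6.39, 15.1 and 5.61 against 43.7, 54.1, 91.3, 59.9 and 59.7 (-2.62, SE 0.32). Both Mx1 (-1.96, SE 0.36) and Ifit1 (-1.86, SE 0.39), the latter with shared sequence, fell short of the 4-fold limit. Summed over 28 genes the list stood at 1814, 2600.0, 1104, 2022 and 1396 RPM at day 4 and at 3017, 3582, 5739, 3605 and 3894 in Rag1-/- tumours. Day 6 tumours, in the same C57BL/6 host, had sums of 2243 to 4521 and overlapped both groups, and cultured cells had 423 to 1146. The 4-fold call of Rsad2 was lost in 9 of 19 other settings, with values of -1.86 without Rag1-/- library 3, -1.83 without day 4 library 3 and -1.92 without day 4 library 5.

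Promoters of 4 lower genes are shown because they carry the interferon-stimulated response element in its core form. The letters GAAA, 2 bases of any kind and GAAA, searched the same way, were found in 1079 of 27025 RefSeq promoters (3.99%), in 10 of 19 held for the interferon list (52.6%), in 9 of 10 held for the interferon-gamma GTPases and in 5 of 16 held for the 22 lower genes (31.2%). Among the 292 promoters held for higher genes 15 had it (5.14%). The first listed match began 75 bases before the start in Oas3, 120 in Rsad2 and 165 in Gbp5, and Ddx60 had 2 matches, 53 and 19 bases before. Sequences are from RefSeq, build GRCm38.p6, 250 bases ending just before the start, 5′ to 3′ along the gene, with matches in capitals, which in Rsad2 and Gbp5 read on the other strand. They lie at chr5:120777660-120777909 on the minus strand (Oas3), chr12:26456453-26456702 on the minus strand (Rsad2), chr8:61927837-61928086 on the plus strand (Ddx60) and chr3:142496684-142496933 on the plus strand (Gbp5).
Oas3 promoter: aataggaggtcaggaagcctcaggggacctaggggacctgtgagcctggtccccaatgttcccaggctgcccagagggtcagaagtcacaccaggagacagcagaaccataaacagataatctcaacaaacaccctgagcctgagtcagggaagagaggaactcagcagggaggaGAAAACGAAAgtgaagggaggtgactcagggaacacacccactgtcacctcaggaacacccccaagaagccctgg
Rsad2 promoter: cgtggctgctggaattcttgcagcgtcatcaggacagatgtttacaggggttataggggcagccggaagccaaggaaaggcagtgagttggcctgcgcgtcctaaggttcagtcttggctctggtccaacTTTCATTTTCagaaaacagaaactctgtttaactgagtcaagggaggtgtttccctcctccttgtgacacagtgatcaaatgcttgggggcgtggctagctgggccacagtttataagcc
Ddx60 promoter: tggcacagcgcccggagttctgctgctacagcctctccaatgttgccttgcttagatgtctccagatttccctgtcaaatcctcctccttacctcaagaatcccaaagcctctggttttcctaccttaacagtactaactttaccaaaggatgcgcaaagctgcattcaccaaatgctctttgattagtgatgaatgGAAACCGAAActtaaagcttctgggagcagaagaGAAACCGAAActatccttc
Gbp5 promoter: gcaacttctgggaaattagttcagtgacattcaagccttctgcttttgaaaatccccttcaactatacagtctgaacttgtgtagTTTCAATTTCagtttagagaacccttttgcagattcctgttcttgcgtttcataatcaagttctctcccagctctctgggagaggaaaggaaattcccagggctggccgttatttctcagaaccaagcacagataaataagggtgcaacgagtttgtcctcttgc

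The interferon-gamma response GTPases, which attack the vacuoles of intracellular parasites, followed the same direction with a median of -1.01. Of 16 tested 2 were called lower, beside 0.784% of all genes. After the filter 1 of 8 remained called, with a median of -0.73. Without day 4 libraries 3 and 5 none of the 16 was called and the median was -0.56, and without libraries 2 and 4 there were 4 calls. Gbp5 was at 12.6, 14.6, 6.88, 12.7 and 5.76 RPM at day 4 against 35.0, 42.9, 81.0, 49.0 and 41.4 (-2.22, SE 0.33, and -1.81 without day 4 libraries 3 and 5), and at 34.3 to 164 at day 6. Nlrc5, the transcriptional activator of MHC class I genes, was at 53.5, 40.5, 45.9, 47.1 and 26.0 against 180.3, 196, 225, 186 and 192 (-2.22, SE 0.19). No overlap was seen for either gene. The MHC class I list as a whole had a median of -0.22, with 1 gene called in each direction among 16 tested. Over all genes 5.89% were called higher and 0.784% lower. MHC class II genes, of antigen-presenting cells, had no call among 11 tested and all 11 above 0 (0.73, beside 0.002 in wild-type tumours). Their summed levels overlapped at 753 to 2327 against 578 to 1093 RPM. Day 4 libraries 2 and 4 had the highest sums, and without them the median was 0.14 over 9 genes tested, while without libraries 3 and 5 it was 1.22.

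Genes of connective tissue were higher at day 4. Of 22 fibroblast and contractile genes all were tested and 13 were called higher, none lower, with a median of 2.67. Of 19 collagens 9 were called higher (median 0.41) and of 19 matrix glycoproteins and proteoglycans 12 were (3.00), again with none lower. After the filter 11 of 19, 6 of 16 and 9 of 15 remained called. Col1a2, a chain of the fibrillar type I collagen, was at 3542, 2626, 859.9, 3916 and 749 RPM at day 4 against 35.3, 142, 103, 13.2 and 49.8 (5.19, SE 0.78). Lox, which cross-links collagen, was at 418, 123, 70.9, 268 and 79.7 against 2.83, 12.9, 4.99, 0.640 and 2.77 (5.27, SE 0.76). Dcn, the collagen-binding proteoglycan decorin, which separates the table pairs, was at 433, 388, 118, 497 and 184 against 4.67, 21.5, 14.2, 2.99 and 7.75 (5.04, SE 0.63). Day 4 libraries 1, 2 and 4 were above libraries 3 and 5 for each of Col1a2, Lox and Dcn, and all 5 were above the Rag1-/- tumours.

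Fn1, fibronectin of provisional wound matrix, was at 1635, 426, 337, 679 and 354 RPM against 36.8 to 119.6 (3.00, SE 0.51). Timp1, an inhibitor of matrix metalloproteinases, was at 599, 321, 158, 296 and 247 against 44.6 to 68.8 (2.46, SE 0.33). Cxcl12, a stromal chemokine, was at 222, 180.4, 50.5, 226 and 41.7 against 2.13 to 10.8 (4.53, SE 0.65). These stromal genes were listed near 0 in culture, with Col1a2 at 0 to 0.0732 and Dcn at 0 to 0.131 RPM, except Timp1 at 29 to 47.9. Col1a2 was at 148 to 737 RPM at day 6, below every day 4 knockout tumour. Thbs1, thrombospondin of platelets and wound matrix, was at 813, 191, 208, 426 and 147 against 27.3 to 48.3 (2.85, SE 0.47) and at 13.2 to 94.2 at day 6. Prg4, the joint lubricin, was at 96.1, 27.6, 7.58, 22.4 and 41.3 against 0.107 to 0.955 (5.08, SE 0.63). Every day 4 tumour exceeded every Rag1-/- tumour for both. Of the collagen receptors besides Ddr1, 2 of 9 tested were called higher (Mrc2 and Itga11).

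Markers of fat, muscle and skin differed by library. Of 19 adipocyte genes tested 4 were called higher, of 28 muscle genes 4 and of 17 keratinocyte genes 5, beside 5.89% of all genes, with none lower. The list medians were 3.45, 2.32 and 1.62. Without day 4 libraries 3 and 5 only 11 muscle genes reached the level for testing, with a median of 0.03. The muscle median of 2.32 thus rests on those libraries and on genes tested through them. In wild-type tumours the list medians were 0.59 for adipocyte, 2.27 for muscle and -0.06 for keratinocyte genes. Adipocyte genes summed to 1693, 10617, 990.0, 7875 and 738 RPM in day 4 libraries 1 to 5 and to 361 to 617 in Rag1-/- tumours. Fabp4, a fatty acid carrier of fat cells, was at 344, 2128, 180.4, 1748 and 122 against 8.99 to 54.7 (4.69, SE 0.94). Libraries 2 and 4 held most of the fat signal. Muscle genes summed to 131, 178, 648, 155 and 6091 at day 4 against 125 to 178. Des, the muscle intermediate filament desmin, was at 22.7, 28.3, 59.0, 23.7 and 716 against 7.47 to 13.8 (2.61, SE 0.95), and without library 5 the difference was 1.70.

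Keratinocyte genes summed to 155, 121, 1542, 119.7 and 109 RPM at day 4 against 24.5 to 34.2, which put library 3 apart. Krt14, a basal keratin that shares sequence with relatives, was at 17.3, 11.7, 361, 12 and 12.5 against 0.161 to 0.764 (4.88, SE 0.97). Krt19, a luminal keratin, was at 47.7, 74.4, 1.63, 46.1 and 18.5 against 0 to 0.730 (5.13, SE 0.95) and Krt18 at 28.0, 51.4, 1.90, 34.0 and 10.2 against 0.215 to 0.899 (4.04, SE 0.82). Those luminal keratins were lowest in library 3, where Krt14 was highest. Esr1, the oestrogen receptor, was at 5.32, 8.46, 1.41, 9.86 and 3.49 against 0.270 to 0.697 (2.43, SE 0.46). Krt14, Krt19, Krt18 and Esr1 were under 1 RPM in every Rag1-/- library and were tested only through their day 4 levels. Luminal genes gave 5 calls of 13 tested (median 2.36) and summed to 571 to 791 RPM against 267 to 338. Those Rag1-/- sums stood close to the Krt8 levels given above, and Krt8 has close relatives in the genome. Wild-type tumours had sums of 532 to 683 against 243 to 347 and a list median of 0.06. An amount of luminal tissue cannot be read from the sums. The part of skin, fat, muscle or mammary tissue in the other differences was not tested. Without libraries 2 and 4 the fibroblast median was 2.0 and the interferon median -1.63, and without libraries 3 and 5 the interferon median was -1.07, no muscle gene was called and the neutrophil median was 3.53. Calls without libraries 2 and 4 numbered 2 for adipocyte, 10 for muscle, 9 for keratinocyte, 3 for luminal and 7 for interferon genes. Without libraries 3 and 5 they numbered 12 for adipocyte, 4 for keratinocyte, 12 for luminal and 2 for interferon genes, where Usp18 and Rsad2 lost the call.

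Vessel and blood genes differed with the same libraries. Of 22 endothelial genes tested 3 were called higher and 11 were higher without overlap (median 1.09), beside 5.89% and 20.9% of all genes. In wild-type tumours the endothelial median was 0.02 and no member was called. Wild-type sums overlapped, at 426 to 912 RPM at day 4 and 691 to 799 in Rag1-/- hosts. Pecam1, an adhesion molecule of endothelium, was at 364, 209, 101, 246 and 108 RPM at day 4 against 62.6 to 85.0 (1.23, SE 0.36). Aplnr, the apelin receptor of growing vessels, was at 75.7, 117, 19.3, 141 and 17.2 against 1.39 to 12.5 (3.23, SE 0.80). Alas2, the haem enzyme of red cell precursors, was at 36.9, 84.5, 13.4, 59.1 and 14.0 against 0.374 to 4.61 (4.07, SE 0.69). Hmox1, which breaks haem down, was at 1536, 717, 597, 983 and 668 against 90.4 to 184 (2.71, SE 0.30). Libraries 1, 2 and 4 exceeded libraries 3 and 5 in all 4 of these genes, and every day 4 library exceeded every Rag1-/- library.

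Other genes differed with a small spread between libraries. Ghrh, the growth hormone-releasing hormone, was at 24.7, 18.8, 19.8, 33.2 and 30.4 RPM at day 4. In Rag1-/- tumours it was at 0.135, 0.112 and 0.0536 in libraries 1 to 3 and listed at 0 in libraries 4 and 5 (5.50, SE 0.18), and it was at 0 to 0.107 at day 6 and 0.344 to 1.21 in culture. Wild-type tumours showed Ghrh at 20.5 to 60 at day 4 and 0 to 0.0839 in Rag1-/- hosts. Tnfrsf9, the costimulatory receptor 4-1BB, was at 247, 202, 198, 307 and 351 against 49.3, 49.0, 32.5, 41.4 and 45.0 (2.55, SE 0.20). With 109 to 202 RPM in culture Tnfrsf9 is also expressed by the tumour line. H19 spread widely. This imprinted non-coding RNA of embryo and growing muscle was at 32.4, 73.5, 116, 56.9 and 1141 against 0 to 2.31 (6.75, SE 0.99), highest in the library with most muscle RNA.

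**Figure D3:**
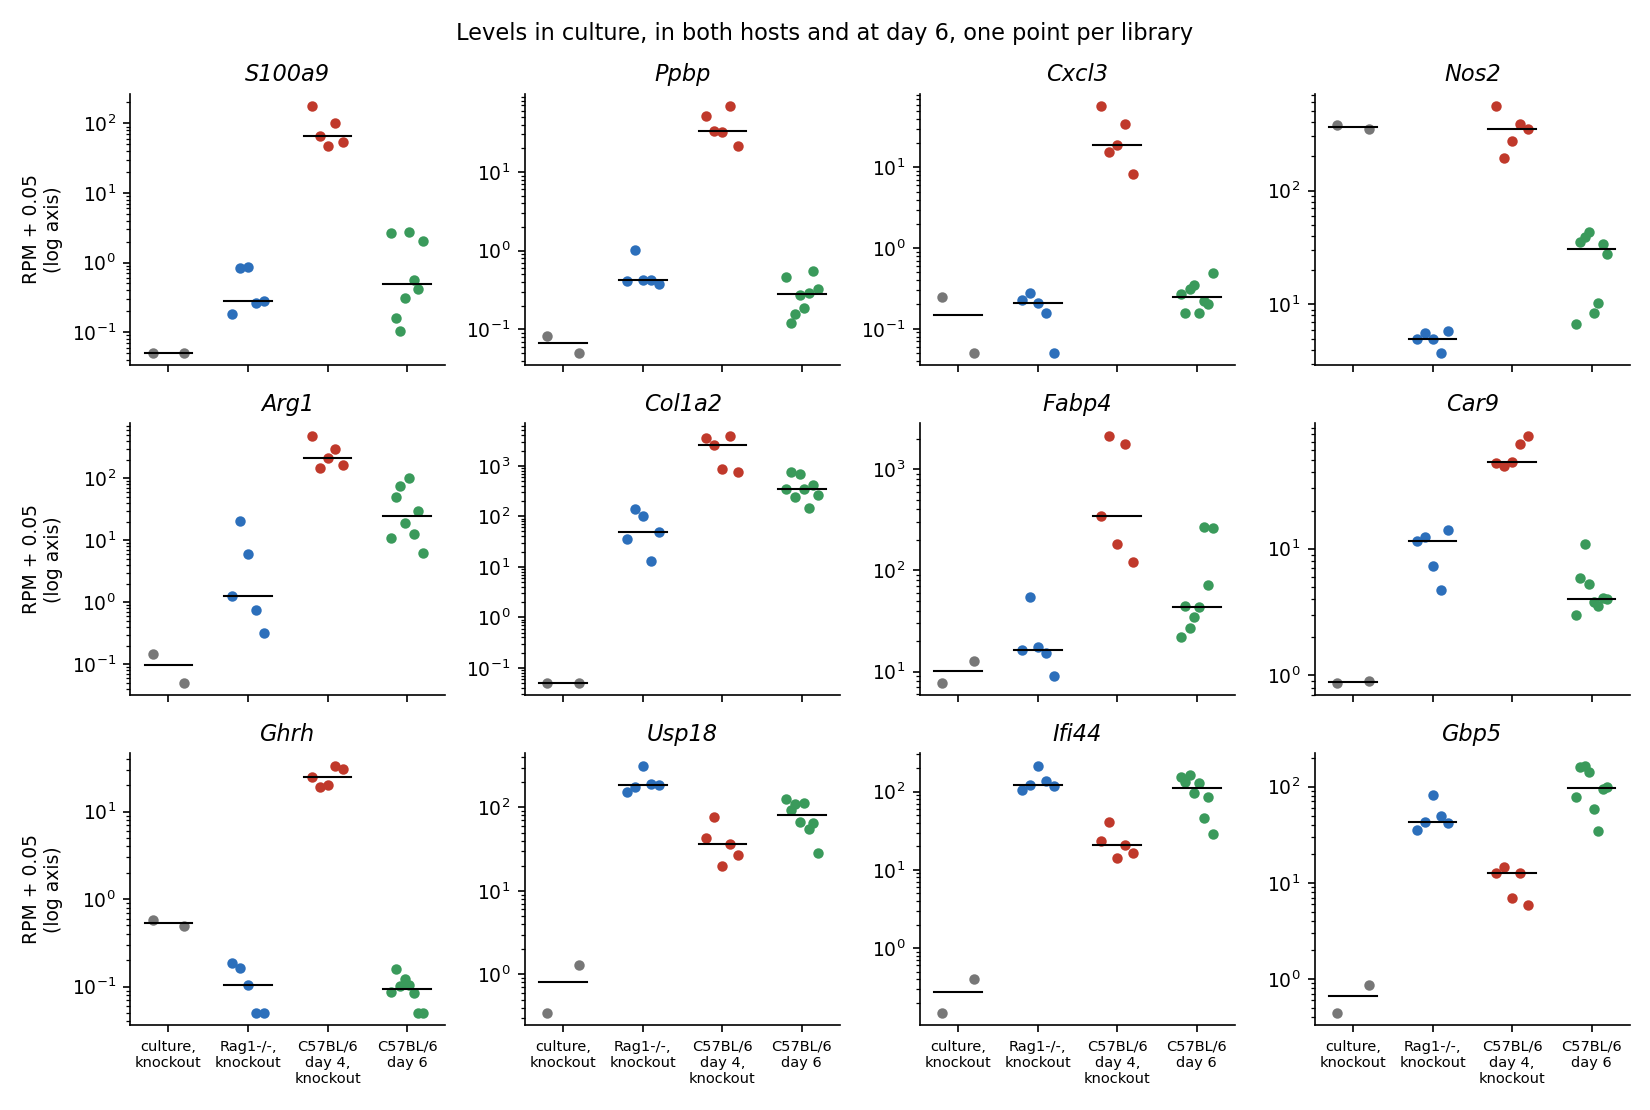
Levels of 12 genes (RPM + 0.05, log axes, 1 point per library, lines at group medians) in 2 cultured knockout derivatives, 5 Rag1-/- and 5 day 4 knockout tumours, and 8 day 6 tumours of unlabelled Ddr1 genotype. S100a9, Ppbp, Cxcl3 and Ghrh are high at day 4 alone among the sets shown, Nos2 is high in culture (379 and 351) and at day 4 (192 to 557), and Usp18, Ifi44 and Gbp5 are lower at day 4 than in Rag1-/- tumours.

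Of 21 hypoxia and glycolysis genes tested 5 were called higher at day 4 and none lower (median 1.02). Without the size limit 13 were higher without overlap. Over all genes these shares were 5.89% and 20.9%. After the filter 2 of 13 remained called, with a median of 0.80. Car9, the carbonic anhydrase induced by low oxygen, was at 47.7, 44.7, 48.1, 67.0 and 77.9 RPM at day 4 against 11.5, 12.4, 7.19, 4.64 and 14.1 (2.52, SE 0.32). Adm, the vasodilator adrenomedullin, was at 469, 311, 477, 650.5 and 938 against 94.1 to 169.6 (2.10, SE 0.32). Library 5 was the highest for both. The other 3 called genes of the list, Eno1, Higd1a and Pgk1, separate the table pairs and are not counted as host differences. At day 6 Car9 was at 2.96 to 10.9 and Adm at 50.8 to 266 RPM.

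Genes of the cholesterol synthesis list were lower at day 4, with all 18 tested below 0 (median -1.25). Of these, 16 were lower without overlap, beside 34.3% of all genes, though only 1 reached 4-fold. Members below that limit are given by value. Insig1, which holds the SREBP escort protein in the endoplasmic reticulum, was at 19.4, 20.1, 19.7, 20.8 and 12.3 RPM in day 4 libraries 1 to 5 against 52.6, 46.0, 74.0, 49.9 and 66.7 (-1.62, SE 0.19). Cyp51, the lanosterol demethylase, was at 40.0, 59.9, 83.0, 45.1 and 35.1 against 113 to 195 (-1.49, SE 0.26). Sqle, the squalene epoxidase, was at 82.1 to 144 against 176 to 243 (-1.03, SE 0.16). The hosts did not overlap for any of these 3 genes, and library 3 was the highest day 4 library for Cyp51 and Sqle. The wild-type list median was -1.67, and day 6 sums of 1539 to 2768 RPM stood near the Rag1-/- sums of 2001 to 2731 while day 4 sums were 868 to 1544.

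Cell cycle genes had no call among 28 tested, and 11 were lower and 1 (Pcna) higher without overlap, beside 34.3% and 20.9% of all genes, so the share lower was near the background (median -0.37, beside -0.12). Top2a, a topoisomerase of dividing cells, was at 335, 292, 484, 304 and 375 RPM at day 4 against 748, 747, 775, 812 and 809 (-1.14, SE 0.13). Mki67, the proliferation antigen, was at 65.2 to 131 against 184 to 219.6 (-0.97, SE 0.20). Their sums were 2747 to 4395 RPM at day 4 and 4662 to 5072 in Rag1-/- tumours, without overlap. Moving the scale by TMM, upper-quartile or median-ratio factors raised the median of all genes by 0.13 to 0.18, and with upper-quartile factors the list median was -0.18. Among the other lower genes Scai, a suppressor of cell invasion, was at 8.52, 4.53, 8.34, 6.38 and 5.66 against 34.9, 28.6, 30.1, 36.5 and 35.0 (-2.25, SE 0.17) and Mtx3, a mitochondrial outer membrane protein, was at 6.12 to 11.4 against 40.4 to 51.2 (-2.33, SE 0.20).

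Whether the host difference was the same in knockout and wild-type tumours could be tested, because a shift that multiplies a gene alike in all libraries of a table cancels. For genes near 0 RPM in a table the added 0.5 keeps it from cancelling in full. The filter on shared sequence and table-splitting genes was not applied here. The labels do not say which line of each genotype gave the tumours of either host, and a change of line between hosts would not cancel. limma on log2(RPM + 0.5), over 19 libraries and 11468 genes, called 123 genes (1.07%) with a larger and 333 (2.9%) with a smaller knockout difference at a Benjamini-Hochberg adjusted p under 0.05, together 3.98%. At an unadjusted p under 0.05 there were 2420. The 456 calls became 973 with DESeq2, 1036 with array weights and 255 to 686 when 1 library was left out. The median difference of differences over all genes was 0.04.

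In 4 of the 6 genes of smallest p with negative values, the knockout tumours overlapped between hosts and the wild-type tumours did not. Slc9a2, a sodium-proton exchanger, was at 70.9, 29.9, 67.6, 50 and 55.9 RPM in day 4 knockout tumours and 64.2, 51.6, 37.3, 56.5 and 51.7 in Rag1-/- ones, which overlapped. In wild-type tumours Slc9a2 was at 51.0 to 77.0 at day 4 and 5.50 to 12.1 in Rag1-/- hosts (difference of differences -2.95, SE 0.32, limma adjusted p 0.000147, 7.9e-15 to 0.00123 over the alternatives). Chn1, a Rac-regulating chimaerin, was at 10.6 to 14.5 and 13.0 to 17.3 in knockout tumours and at 8.46 to 14.7 and 2.37 to 4.37 in wild-type tumours at day 4 and in Rag1-/- hosts (-2.15, SE 0.23, limma adjusted p 0.000147, 7.9e-15 to 0.00195). Map2k6, a kinase upstream of p38, gave -2.85 (SE 0.33, limma adjusted p 0.000299, 1.02e-12 to 0.00153) and Ggt7 -2.26 (SE 0.29, limma adjusted p 0.000838, 2.18e-09 to 0.00362), with the same layout. In each of Slc9a2, Chn1, Map2k6 and Ggt7, the wild-type tumours of Rag1-/- hosts were the low group. Of 14 genes listed as marks of the knockout derivatives, 7 were called negative and 2 positive, beside 2.9% and 1.07% of all genes. That list was chosen from earlier results of these data, so an excess of calls is partly built in and the count is a description only.

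Other genes were lower at day 4 in knockout tumours, with wild-type tumours overlapping or higher. Kcnh2, a potassium channel, was at 39.2, 32.6, 41.0, 34.5 and 34.7 RPM at day 4 and 95.3, 84.3, 63.9, 82.2 and 87.5 in Rag1-/- knockout tumours, beside 37.0 to 60.9 and 29.2 to 50.9 in wild-type tumours (-1.54, SE 0.21, limma adjusted p 0.00102, 2.28e-09 to 0.00472). Orai2, a store-operated calcium channel subunit, was at 20.5 to 21.5 and 29.7 to 36.3 in knockout tumours and 25.7 to 29.3 and 21.7 to 24.7 in wild-type tumours (-0.83, SE 0.10, limma adjusted p 0.000496, 2.61e-11 to 0.00417). Atg9b, an autophagy protein, was at 6.11, 5.55, 11.4, 5.83 and 9.25 against 42.0, 40.7, 38.8, 37.4 and 38.8 in knockout tumours, with wild-type tumours at 5.84 to 11.4 and 7.68 to 14.5 (-2.09, SE 0.31, limma adjusted p 0.00156, 2.31e-07 to 0.0066). For Kcnh2, Orai2 and Atg9b the Rag1-/- knockout tumours were the high group. Tnfrsf9 rose less in knockout than in wild-type tumours. The latter held 347 to 539 at day 4 and 24.9 to 37.3 in Rag1-/- hosts (-1.32, SE 0.25, limma adjusted p 0.00636, 0.000121 to 0.0162).

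Positive values included epithelial and contractile genes. Jup, the junction protein plakoglobin, was at 42.3, 44.7, 42.0, 51.9 and 36.2 RPM in day 4 knockout tumours and 18.9, 18.5, 18.8, 16.5 and 27.9 in Rag1-/- ones, while wild-type tumours overlapped at 15.1 to 28.1 and 21.4 to 35.3 (1.52, SE 0.26, limma adjusted p 0.0038, 1.01e-05 to 0.0165). Acta2, smooth muscle actin, was at 413, 367, 233, 367 and 468 against 45.6 to 73.4 in knockout tumours and at 150.5 to 249 against 66.9 to 84.6 in wild-type tumours (1.35, SE 0.24, limma adjusted p 0.00506, 2.82e-05 to 0.0171). Anxa8, an annexin, was at 9.31 to 20.2 against 0.0536 to 0.449 in knockout tumours and at 0.876 to 4.31 against 0.0839 to 0.817 in wild-type tumours (2.56, SE 0.46, limma adjusted p 0.00503, 0.00101 to 0.0368). Nfib (0.92), Ptk7 (0.98) and Flot1 (0.65) were lower at day 4 without overlap in wild-type tumours, with limma adjusted p of 0.00503, 0.00575 and 0.00651 and highest values over the alternatives of 0.0178, 0.016 and 0.0191. Flot1 lies near Ddr1 on chromosome 17, at 35823230 to 35832791. Of these 12 genes of smallest p, Anxa8, Map2k6 and Ggt7 passed 0.05 in all 32 alternatives that tested them and the other 9 in all 33.

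**Figure D4:**
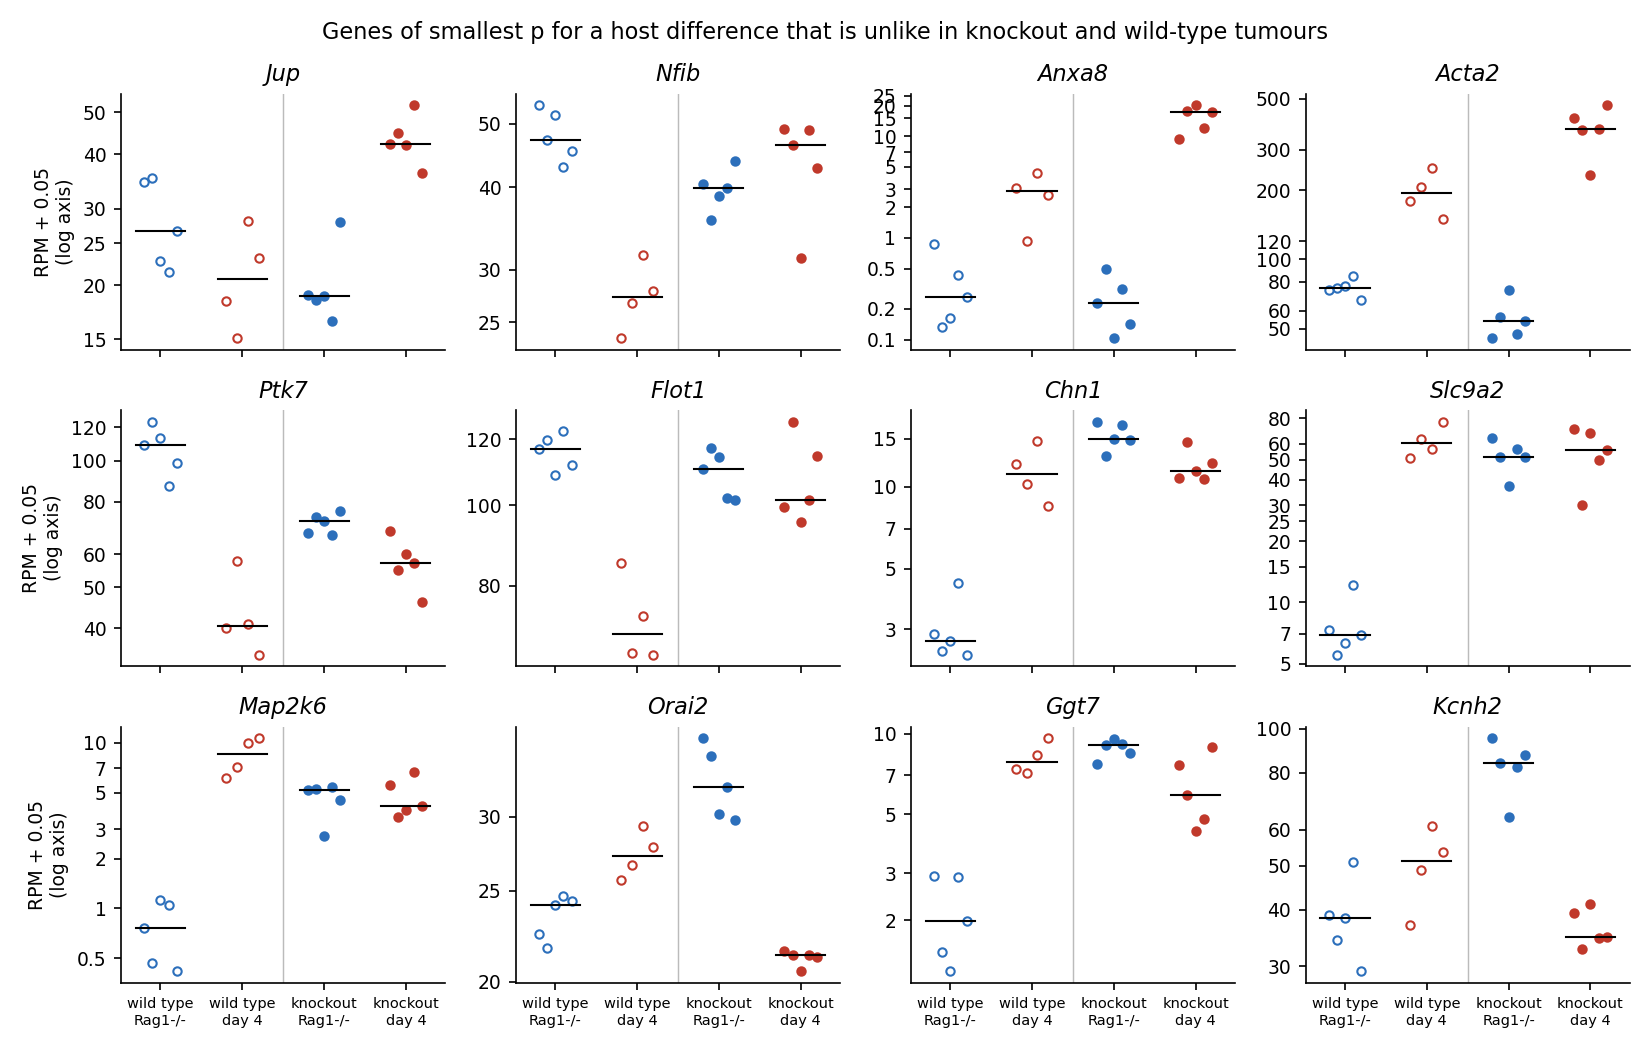
Levels (RPM + 0.05, log axes, 1 point per library, lines at group medians) of the 6 genes of smallest p in each direction for a host difference that is unlike in the genotypes, with open symbols for wild-type and filled symbols for knockout tumours. Slc9a2, Chn1, Map2k6 and Ggt7 are low in wild-type Rag1-/- tumours alone, Kcnh2 and Orai2 are high in knockout Rag1-/- tumours alone, and Jup, Anxa8 and Acta2 are highest in day 4 knockout tumours.

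The host difference of keratins was also unlike in the genotypes, as Krt18 (4.30, SE 0.87, limma adjusted p 0.00931, 1.3e-07 to 0.0316) and Krt14 (4.69, SE 1.09, limma adjusted p 0.0216, 0.00443 to 0.0909, called in 31 of 33 alternatives) show. Krt18 was at 0.230 to 1.06 RPM in wild-type day 4 tumours, below every knockout one. The adipocyte list had all 19 tested above 0 (median 2.23) with none past the adjusted p. Interferon genes had 26 of 27 above 0 (0.75) and cholesterol genes 18 of 18 (0.53), both with none past it, so a smaller fall in knockout tumours was not shown gene by gene. Neutrophil chemokines had 1 of 6 above 0 and no call. Nos2 missed the threshold (-1.14, SE 0.32, limma adjusted p 0.0552, 0.013 to 0.115) and passed it in 4 of 33 alternatives.

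Gene length and base composition moved with the host difference. Over the 9431 genes the median difference fell from 0.26 in the quintile of shortest transcripts to -0.09, -0.22, -0.38 and -0.55 in the next quintiles. In wild-type tumours it went from 0.13 to -0.43, and between the day 4 knockout tumours and day 6, which list the same genes, from 0.08 to -0.16. By GC content it went from -0.41 in the lowest quintile to 0.03 in the highest. Of the 22 lower genes 11 were in the quintile of longest transcripts, as were 92 of the 427 higher genes. The part of library preparation or RNA quality in this trend was not tested.

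**Figure D5:**
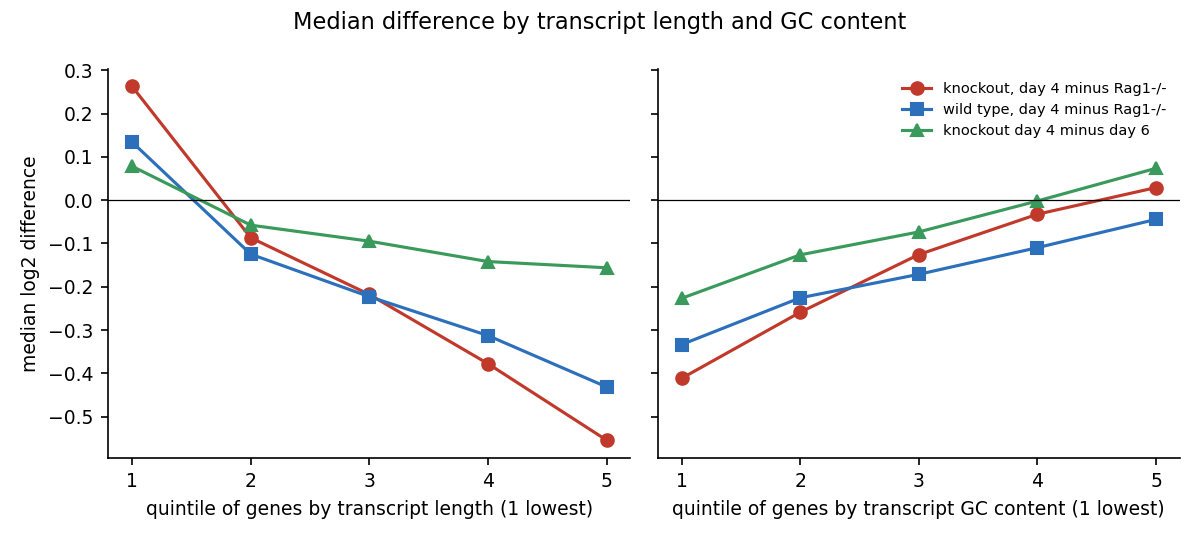
Median log2 difference (y axis) in quintiles of genes by transcript length (left) and GC content (right), lowest quintile first, for knockout tumours (day 4 minus Rag1-/-), wild-type tumours (day 4 minus Rag1-/-) and knockout day 4 minus day 6 tumours. In knockout tumours the median runs from 0.26 for the shortest to -0.55 for the longest transcripts.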

How the data were processed

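Trizol extraction and TruSeq stranded mRNA libraries are per the labels' protocols. CASAVA, TopHat, DESeq2 and the build mm10 are named in the submitters' processing notes, without versions. The sources used here do not name the counting tool, the annotation or the use of strand. The deposited values, of the signal kind, are whole multiples of 1 step per library, as counts divided by a size factor are. Dividing by that step recovered whole reads within 0.01 for 100% of values in all 32 libraries. The 4 tables were normalized separately, and 26 columns of the authors' own statistics were not used.

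Recovered reads of both tables were joined on symbols and scaled to RPM. Dates had replaced 25 symbols of the Rag1-/- table. Calls needed 4-fold and no overlap, over genes with a mean of 1 RPM. Members, the 41 lists (784 genes) and rules were chosen with earlier results of these data known. The naming rule took Ddr1, the 12 largest rises and falls at 20 RPM or more, and up to 4 called members per list (2 of highest mean where none was called). It also took 6 genes per direction of smallest p for a host difference unlike in the genotypes. The size rule was repeated after filtering shared sequence (GENCODE transcripts, 99.7% of symbols matched) and table-splitting genes. Other genes were chosen after their values were seen, and a few genes that the rule names are not reported here. The test used limma 3.58.1 in R 4.3.3, with a trend and two-sided p, and was tested on simulated data. Alternatives were DESeq2 1.42.0 and edgeR 4.0.16 on the recovered reads, other scalings, pseudocounts, filters and libraries left out. Python 3.11.15 and pandas 2.3.3 did the rest.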

Additional observations from a re-analysis of the deposited data

Results flagged for a closer look

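In groups of 5 libraries, the gap between the RPM value farthest out and its nearest neighbour was divided by the full range. A ratio over 0.71 was flagged, for the genes and list sums described above. Of 168 groups 25 held a library far from the other 4 by this rule. A chance rate of about 1 in 20 holds for independent groups of normally distributed values. RPM values here are skewed, and list sums include genes that were also counted alone. Groups where 1 library alone held reads, as for Eno1, Fkbp2 and Cd3e, are flagged whatever its level. The 25 flagged groups thus cannot be weighed against that rate and are a description only. Rag1-/- library 2 and day 4 library 5 held 7 each, and day 4 library 3 held 4.

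Rag1-/- library 2 was above the others, in RPM, for Arg1 (20.7 beside 0.277 to 5.95), Saa3 (21.1 beside 2.56 to 7.4), Fabp4 (54.7 beside 8.99 to 17.5), Ptgs2 (2.92), Cxcl2 (1.35), Ppbp (0.955) and Cd3e (0.0562, 1 library above 0). Rag1-/- library 3 was high for Usp18 (315 beside 153 to 189) and for the sum of interferon-gamma response GTPases (1331 beside 686 to 797). Rag1-/- library 1 was low for the sum of macrophage genes (2007), and library 4 was alone above 0 for Eno1 (0.0534).

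Day 4 library 5 was high for Des (716), Actc1 (367 beside 0.514 to 28.7), H19 (1141), the sum of muscle genes (6091), Ddr1 (53.7 beside 30.1 to 34.9) and Eno1 (1290.3), and low for Cd8a (0.101). Day 4 library 3 was high for Krt14 (361), the sum of keratinocyte genes (1542) and that of cholesterol genes (1544), and low for the sum of fibroblast genes (1847). Library 1 was high for Fn1 (1635) and alone above 0 for Fkbp2 (0.0926), and library 4 was high for Cd163 (68.0).

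A host difference that was unlike in knockout and wild-type tumours, by limma's test of the difference itself, marked the 6 genes of smallest p in each direction. The differences of differences were 1.52 for Jup, 0.92 for Nfib, 2.56 for Anxa8, 1.35 for Acta2, 0.98 for Ptk7 and 0.65 for Flot1. They were -2.15 for Chn1, -2.95 for Slc9a2, -2.85 for Map2k6, -0.83 for Orai2, -2.26 for Ggt7 and -1.54 for Kcnh2.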

How the results depend on the processing

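The count of 774 called genes became 250 with a pseudocount of 5, 366 with a mean of 10 RPM or more, 2627 at 2-fold (57.1% of them higher, beside 88.2%) and 285 at 8-fold. The 449 genes left by the filter became 103, 162, 1873 and 133 under the same settings, and 696 without day 4 libraries 3 and 5. Leaving out 1 library gave 731 to 898 and 420 to 543. Pseudocounts of 0.1 and 1, 3 other scalings, synonyms in the join and the adipocyte-rich libraries left out kept the count within 1.5 times. Of 130 named called genes 51 lost the 4-fold call in at least 1 of 19 settings. The test for a host difference unlike in the genotypes (456 genes) gave 1036 with array weights, 973 with DESeq2 and 474 with edgeR on recovered reads. When 1 library was left out it gave 255 (without Rag1-/- knockout library 1 or 4) to 686 (without day 4 knockout library 3). Counts more than 1.5 times lower also came without Rag1-/- wild-type library 2 (259), 3 (292) or 5 (293), Rag1-/- knockout library 2 (297) or day 4 wild-type library 2 (295) or 4 (265). Replicate numbers were not treated as pairs in the main fit, and the labels do not say whether same-numbered libraries share an animal. Deviations from the group means correlated at -0.01, 0.32, -0.14, -0.19 and 0.24 (Pearson's r) between knockout libraries 1 to 5 of the hosts. Libraries of unlike number were not compared, so pairing was not settled. With the replicate block 316 genes were called. The cause was not tested.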

Other observations

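Some of the 12 genes of smallest p for a host difference unlike in the genotypes differed among the cultured wild-type libraries, a point chosen after the values were seen. Slc9a2 was at 44.4 RPM in the wild-type culture titled E0771-P, at 9.51 in EV and 4.78 in Ctrl, and at 63.3 and 24.3 in the knockout derivatives 3-6 and 3-7. Ggt7 was at 30.8, 10.6 and 6.84 in the same wild-type cultures and at 32.8 and 18.6 in the derivatives. Kcnh2 was at 91.7, 51.5 and 52.9 against 110.4 and 105. Map2k6 was at 3.66, 1.19 and 0.744 against 3.6 and 1.80, and Chn1 at 8.41, 4.54 and 3.49 against 13.1 and 9.65. For these 5 genes the culture E0771-P was the highest of the wild-type libraries. Wild-type tumours of Rag1-/- hosts stood near the low cultures for Slc9a2, at 5.50 to 12.1, and wild-type tumours at day 4 near the high ones, at 51.0 to 77.0. Kcnh2 did not show this, since wild-type tumours overlapped between hosts at 37.0 to 60.9 and 29.2 to 50.9. Orai2 was at 38.1, 23.2 and 22.2 in the wild-type cultures and Flot1 at 45.1, 80.2 and 79.6, the other way. The labels do not say which wild-type line gave the tumours of either host, and no test was made of this pattern.

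Malat1, a long nuclear RNA, was among the largest falls by the size rule. It was at 414, 73.1, 317, 236 and 193 RPM at day 4 against 1648, 1124, 1225, 1647 and 1398 in Rag1-/- knockout tumours (-2.71, SE 0.44), and it was at 76.1 to 263 at day 6 and 589 to 1171 in culture, so it separates the pairs of tables.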
